A study of Mus musculus with 2 samples.

Results

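The 10 genes described here encode costimulatory and checkpoint ligands of antigen-presenting cells and their close partners. They are Cd80, Cd86, Icosl, Cd40, Cd274, Pdcd1lg2, Vsir, Lgals9, Havcr2 and Pvr, taken by symbol from the 27998 genes listed in the gene files of both libraries, and all 10 were found. The study injected 150000 LLC cells, a mouse lung carcinoma line, in 100 µl of PBS into the pleural cavity of mice and collected the malignant pleural effusion after 10 days. Live CD45+ CD11b+ cells were sorted from the fluid and read with a droplet 3' single-cell RNA assay, in 2 libraries of 1 group. No untreated mice were analysed here. Both libraries therefore share the tumour, the time point and the sort, and the labels give neither strain, age nor number of animals.

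CD80 and CD86 are the B7 ligands that engage CD28 and CTLA-4 on T cells, ICOS ligand engages ICOS, and CD40 receives the CD40 ligand signal of helper T cells. PD-L1 (Cd274) and PD-L2 (Pdcd1lg2) engage the inhibitory receptor PD-1, and VISTA (Vsir) is an inhibitory B7 relative abundant on myeloid cells. Galectin-9 (Lgals9) is a ligand of TIM-3 (Havcr2), itself a receptor found on myeloid and T cells, and PVR (CD155) binds TIGIT, CD96 and DNAM-1. Interferon gamma is a known inducer of PD-L1, and mature dendritic cells that migrate to lymph nodes are known for high levels of these molecules.

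Library 1 held 1141 barcodes and library 2 held 2908, of which 1106 and 2782 cells remained after the filters on genes, mitochondrial share and doublets. The median unique molecular identifier (UMI) count per barcode was 9894 in library 1 and 1954.5 in library 2, and 4 barcodes occurred in both, with 4.5 to be found by random draw from the barcode list. Clusters were built without the 10 genes or their pathway lists and were named from markers. The dendritic-like class had 183 cells in library 1 and 115 in library 2, the macrophage-like class 381 and 280, the monocyte-like class 353 and 416, and the neutrophil-like class 75 and 1587. B-like cells numbered 28 and 21, and T-like cells 4 and 23. Xist, the female X-inactivation RNA, was at 0 in library 1 and 371.6 CPM (UMIs scaled to library size) in library 2. The Y-linked genes Ddx3y, Eif2s3y, Uty and Kdm5d summed to 135.8 and 15.8 CPM, so sex and library cannot be told apart in these data. Library 2 also carried antibody tags, BC2 and BC3, and the BC3 side held 1568 of its 1587 neutrophil-like cells, while the BC2 side held 99 of its 115 dendritic-like and 264 of its 280 macrophage-like cells. Because the clusters were named from marker lists, the levels of those markers describe the classes and are no check of the names. In dendritic-like cells 16 of 17 dendritic markers had a UMI in library 1 and 17 of 17 in library 2. They summed to 3297 and 1699 CPM there, against 176.2 and 262.3 in macrophage-like cells. Gates on single cells without S100a8 and S100a9 kept 79 and 21 dendritic-like cells as dendritic. The same gates placed 38 and 21 as macrophage, 1 and 10 as monocyte and 2 and 0 as neutrophil, and left 63 and 63 out. RNA of the macrophage marker list in dendritic-like cells summed to 1288 CPM in library 1 and 5074 in library 2, with Gata6 and Vsig4 at 0 in both, against 14770 and 12930 in macrophage-like cells. Its part in the levels below was not tested, except that the tests were repeated on the dendritic-like cells holding at most 5 C1q UMIs (166 and 63 cells).

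All levels are CPM of the gene UMIs of a class in 1 library, with exact 95% Poisson intervals that cover counting error only. The 3' counts have no length term, so levels were compared between cell classes and not between genes. Differences between classes were tested with edgeR on UMIs summed per library and class, with n = 2 libraries per class. Nothing in the labels says that the libraries came from separate animals. With the library as a block, the p-values rest on how class differences vary between these 2 libraries, not on the difference between the libraries itself.

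**Figure D1:**
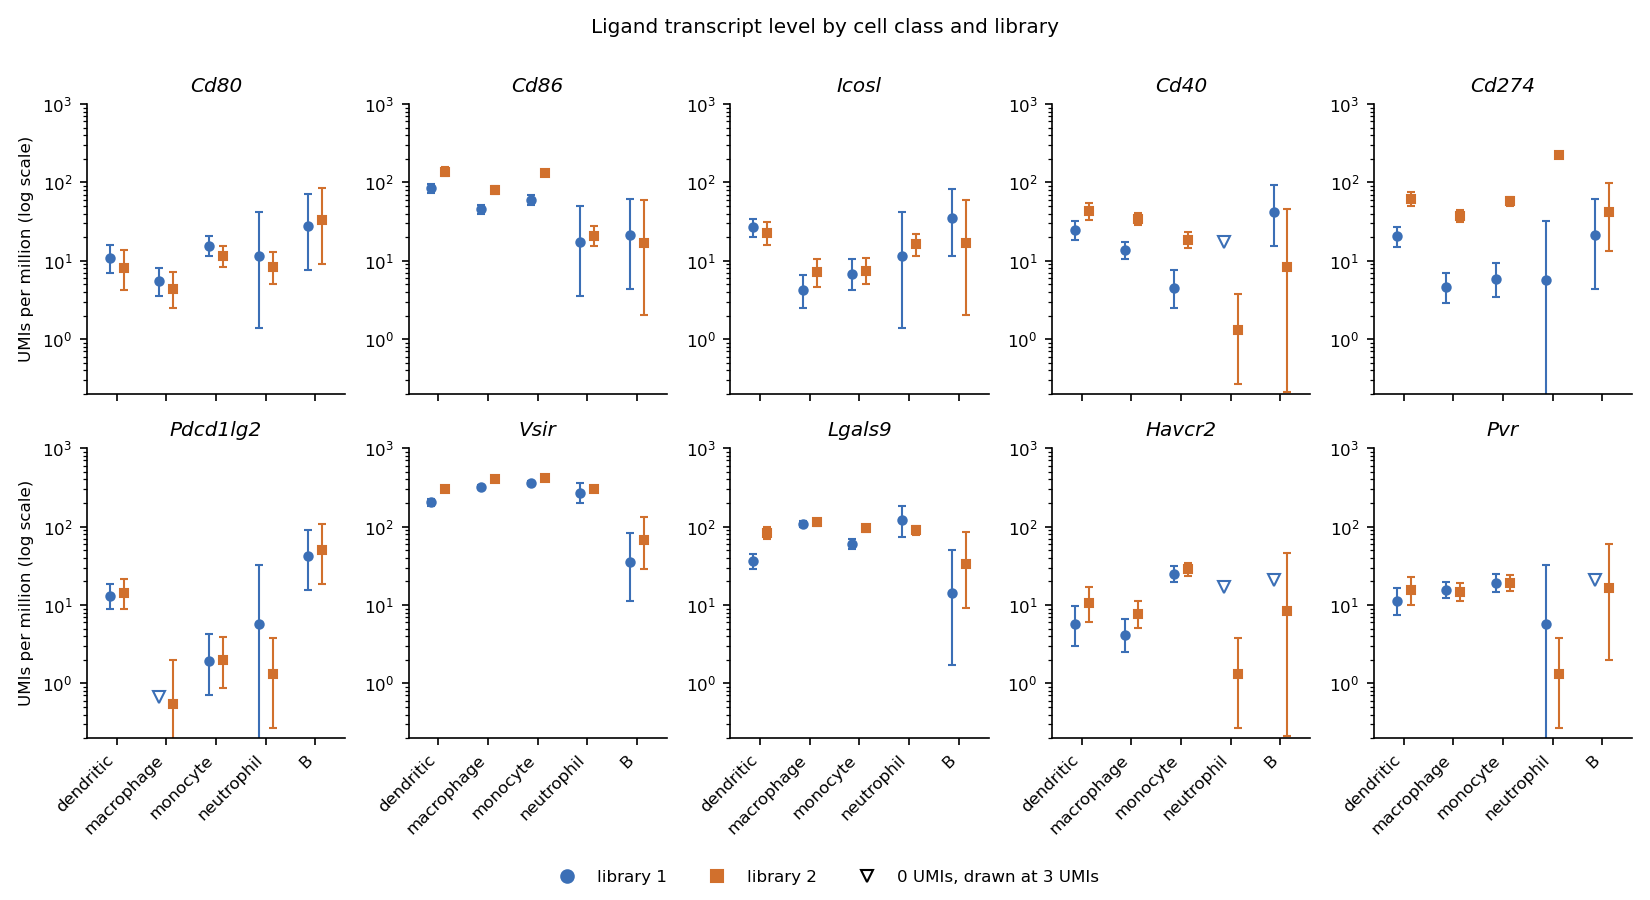
Level of each of the 10 transcripts in CPM (y axis, log scale) by cell class (x axis) and library (circles, library 1; squares, library 2), with exact 95% Poisson intervals; an open triangle marks 0 UMIs and is drawn at the level of 3 UMIs. Pdcd1lg2 lay at 13.1 and 14.2 in dendritic-like cells against 0 and 0.548 in macrophage-like cells, and Cd274 in neutrophil-like cells lay at 5.72 in library 1 and 226.1 in library 2.

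Between dendritic-like and macrophage-like cells, Icosl, Pdcd1lg2, Cd86 and Cd274 were higher in dendritic-like cells and Lgals9 was lower. That is 5 of 10 transcripts with an edgeR adjusted p under 0.05, beside 14.3% of all 9754 genes tested (8.68% higher and 5.66% lower). The median log2 fold change of the 10 was 0.80, and that of all genes tested was 0.015. All 5 differences had the same direction in both libraries.

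Of Cd80, Cd86 and Icosl, Icosl had the largest fold change between these classes. Its level was 26.6 CPM in library 1 and 22.8 in library 2 in dendritic-like cells, 4.18 and 7.13 in macrophage-like cells, and 6.81 and 7.50 in monocyte-like cells. In each class the libraries differed by less than their counting intervals, and both dendritic-like values lay above every macrophage-like and monocyte-like value. In edgeR the log2 fold change was 2.28 ± 0.32 (SE) against macrophage-like cells (adjusted p = 7.05e-05) and 1.87 ± 0.32 against monocyte-like cells (adjusted p = 0.000642), and both calls held under every alternative that could be run.

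Cd86 stood at 83.8 and 136.4 CPM in dendritic-like, 45.1 and 80.3 in macrophage-like and 59.0 and 131.4 in monocyte-like cells. Library 2 was higher in all 3 classes, and within each library the order was dendritic, monocyte, macrophage. The edgeR log2 fold change against macrophage-like cells was 0.94 ± 0.22 (adjusted p = 0.00632), a call kept in 6 of 9 alternatives and lost with DESeq2, with no replicate block and with gates without S100a8 and S100a9. The difference from monocyte-like cells was 0.33 ± 0.22 (adjusted p = 0.410) and did not pass.

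Cd80 was sparse. Its level was 10.9 and 8.03 CPM in dendritic-like cells (25 and 13 UMIs), 5.50 and 4.38 in macrophage-like cells (25 and 16 UMIs) and 15.6 and 11.5 in monocyte-like cells (48 and 46 UMIs). Both macrophage-like values were the lowest of these 3 classes and both monocyte-like values the highest. The edgeR log2 fold change of macrophage-like against monocyte-like cells was -1.48 ± 0.30 (adjusted p = 0.00538), while dendritic-like against macrophage-like cells gave 1.05 ± 0.35 (adjusted p = 0.0535) and missed the threshold. Within the monocyte-like class, the Ly6c2 cluster held Cd80 at 27.7 and 13.1 CPM and the Chil3 Vcan cluster at 7.92 and 10.3.

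For Cd40, dendritic-like cells held 24.4 and 42.6 CPM, macrophage-like cells 13.6 and 34.3, and monocyte-like cells 4.54 and 18.5. Library 2 was higher in every class, and in each library dendritic-like cells were the highest and monocyte-like cells the lowest of these 3. Against monocyte-like cells the edgeR log2 fold change of dendritic-like cells was 1.66 ± 0.34 (adjusted p = 0.00298), and against macrophage-like cells it was 0.66 ± 0.31 (adjusted p = 0.187). Neutrophil-like cells held 0 UMIs of Cd40 in library 1, where 3 UMIs would be 17.2 CPM, and 3 UMIs (1.31 CPM) in library 2.

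The PD-1 ligand genes lie next to each other on chromosome 19. In the mm10 annotation Cd274 spans chr19:29367455-29388095 and Pdcd1lg2 chr19:29410919-29471161, both on the plus strand, with 22823 bp between them. Their transcripts were distributed differently over the classes.

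Pdcd1lg2 had 30 UMIs (13.1 CPM) in dendritic-like cells of library 1 and 23 UMIs (14.2 CPM) in those of library 2. Macrophage-like cells held 0 and 2 UMIs, from class totals of 4544816 and 3648718 UMIs, and monocyte-like cells 6 and 8 UMIs (1.95 and 2.00 CPM). The classes did not overlap, and the libraries differed by less than their counting intervals in each. Of the 23 UMIs in library 2, 14 came from its 16 dendritic-like cells on the BC3 side (86.5 CPM), and the 99 on the BC2 side held 6.17 CPM (2.82 to 11.7). The BC3 side also held 5 of the 7 library 2 cells of cluster 14, the small mature dendritic cluster described below. That cluster carried 13 of the 23 UMIs, so tag side and cluster overlap here and were not separated. With so few macrophage-like UMIs the pooled count ratio is the safer measure, and it was 55.5, with a 95% interval from 14.6 to 470.3. The edgeR call passed (adjusted p = 7.2e-06) and held under every alternative that could be run. Against monocyte-like cells the edgeR log2 fold change was 2.82 ± 0.47 (adjusted p = 0.000486), but with library 2 limited to its BC2 side the adjusted p was 0.0601. B-like cells, also in the CD11b+ sort, held 6 UMIs in each library, 42.04 CPM (15.4 to 91.5) and 49.9 CPM (18.3 to 108.5). PD-L2 is known on mouse B-1 cells of body cavities, as background to that value.

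Whether the counting used strand is not given in the sources used here, and Pdcd1lg2 overlaps the antisense gene A930007I19Rik. That gene was counted separately, at 8.29 and 14.8 CPM in dendritic-like, 22.4 and 34.3 in macrophage-like and 37.6 and 44.2 in monocyte-like cells. It was lowest in dendritic-like cells, the class of these 3 in which Pdcd1lg2 was highest. Without strand, reads of the pair could not be told apart where they overlap.

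Cd274 reached 20.5 CPM in dendritic-like, 4.62 in macrophage-like, 5.84 in monocyte-like and 5.72 (1 UMI) in neutrophil-like cells of library 1. In library 2 the values were 61.1, 37.0, 57.5 and 226.1 CPM (519 UMIs in neutrophil-like cells). Library 2 was higher in each of the 4 classes, and the class with the highest level of these 4 was dendritic-like in library 1 and neutrophil-like in library 2. B-like cells held 3 and 5 UMIs (21.0 and 41.5 CPM). The edgeR log2 fold change of dendritic-like over macrophage-like cells was 1.39 ± 0.41 (adjusted p = 0.0263). That call was kept in 3 of 9 alternatives, and the ratio was 2.13 on the log2 scale in library 1 and 0.73 in library 2. Dendritic-like cells were below neutrophil-like cells by the fit (log2 fold change -1.84 ± 0.42, adjusted p = 0.00142 in edgeR), yet in library 1 alone the log2 ratio was 1.27 in the other direction. In library 2 this contrast of classes nearly coincides with the tag sides, and the library block does not separate them. Dendritic-like cells held Cd274 at 166.9 CPM (110.0 to 242.8) on the BC3 side and 49.4 on the BC2 side. On the BC3 side neutrophil-like cells held 227.7 CPM (208.5 to 248.2), monocyte-like cells 81.2 and macrophage-like cells 28.6. The part of the tag side was not tested.

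**Figure D2:**
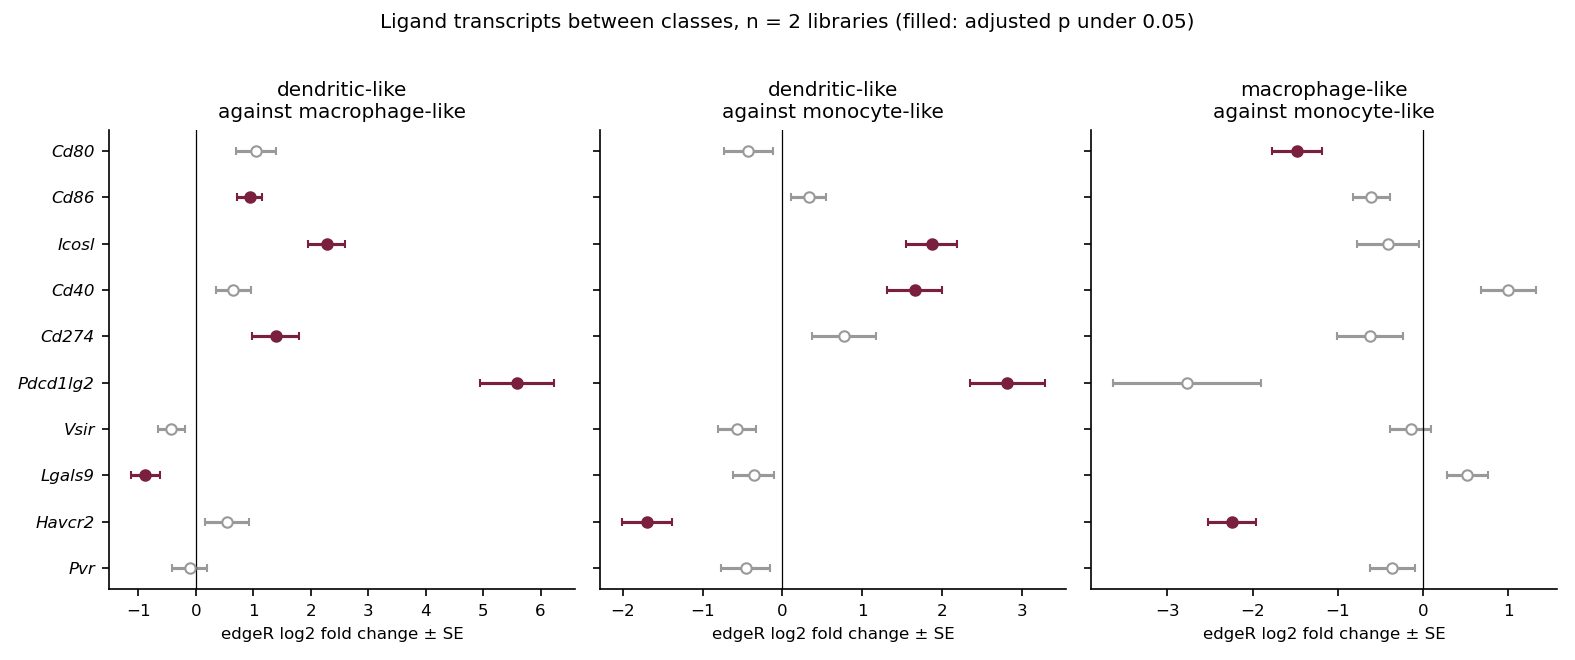
edgeR log2 fold change (x axis) with its standard error for the 10 transcripts (y axis) in 3 comparisons between classes, n = 2 libraries; filled points have an adjusted p under 0.05 and open points do not. Icosl (2.28 and 1.87) and Pdcd1lg2 (5.59 and 2.82) are filled in both dendritic comparisons, and Havcr2 (-1.70 and -2.24) in both comparisons against monocyte-like cells.

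The library ratio of Cd274 is set beside those of 3 genes picked after the values were seen, which is no test of a pathway. IRF1 is a transcription factor induced by interferon gamma, SOCS1 is a feedback inhibitor of its signal and ISG15 is an interferon-induced ubiquitin-like protein. In macrophage-like cells Cd274 was 8.01 times higher in library 2 (95% counting interval 5.03 to 13.4), beside 4.2 times for Irf1, 24.6 for Socs1 and 10.9 for Isg15. In monocyte-like cells the ratios were 9.84 (6.09 to 16.9) for Cd274, 4.75 for Irf1, 20.8 for Socs1 and 15.6 for Isg15. In dendritic-like cells they were smaller, at 2.98 (2.08 to 4.31) for Cd274, 3.15 for Irf1, 2.74 for Socs1 and 4.92 for Isg15. The kinase gene Jak2, from the list of induction genes, had ratios of 1.52 in macrophage-like, 2.27 in monocyte-like, 1.75 in dendritic-like and 1.32 (0.62 to 3.34) in neutrophil-like cells. A ratio of 4 or more, with 0.5 UMIs added to each count, was reached by 2.92% of 9753 genes in macrophage-like, 3.09% in monocyte-like, 4% in dendritic-like and 3.88% in neutrophil-like cells. The reverse ratio was reached by 1.13%, 1.19%, 1.11% and 12% of genes in the same order.

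Other transcripts of the group had smaller ratios between the libraries. Pdcd1lg2 had a library ratio of 1.08 in dendritic-like cells (0.60 to 1.93), Icosl 0.86 (0.55 to 1.31) and Cd80 0.74 (0.35 to 1.49). Vsir was 1.5, 1.27 and 1.17 times higher in library 2 in dendritic-like, macrophage-like and monocyte-like cells. Cd40 had ratios of 1.74 (1.21 to 2.52), 2.51 (1.84 to 3.46) and 4.07 (2.28 to 7.81) in the same order, and Cd86 gave 1.63, 1.78 and 2.23. Lgals9 had 2.30 (1.74 to 3.06), 1.06 and 1.6, Havcr2 1.85, 1.84 and 1.15, and Pvr 1.36, 0.947 and 0.992. The interferon gamma receptor chain Ifngr1 was not higher in library 2, with ratios of 0.54, 0.88 and 0.83. With 1 library on each side these are differences between 2 libraries, with no test, and they coincide with sex, cell makeup and whole-library depth. Median UMIs per cell were 11818 and 12830 in the larger dendritic cluster and 11762.5 and 11766 in the larger macrophage cluster. They were 9379 and 9900.5 in the Chil3 Vcan cluster and 8084 and 9198 in the Ly6c2 cluster. The smaller macrophage cluster had 10702 and 19909.

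In neutrophil-like cells the Cd274 ratio was 39.5, with an interval from 7.06 to 1564 because library 1 gave 1 UMI. Cells of matched depth showed the same contrast. Among neutrophil-like cells with at least 2000 and fewer than 3000 UMIs, 68 cells of library 1 held 1 UMI (6.58 CPM, interval 0.167 to 36.7) and 185 cells of library 2 held 73 UMIs (166.2 CPM, interval 130.3 to 209.0). Irf1 was at 105.3 and 1084 CPM in the same cells, and Socs1 at 19.8 and 198.1. These genes and cells were picked after the values were seen.

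**Figure D3:**
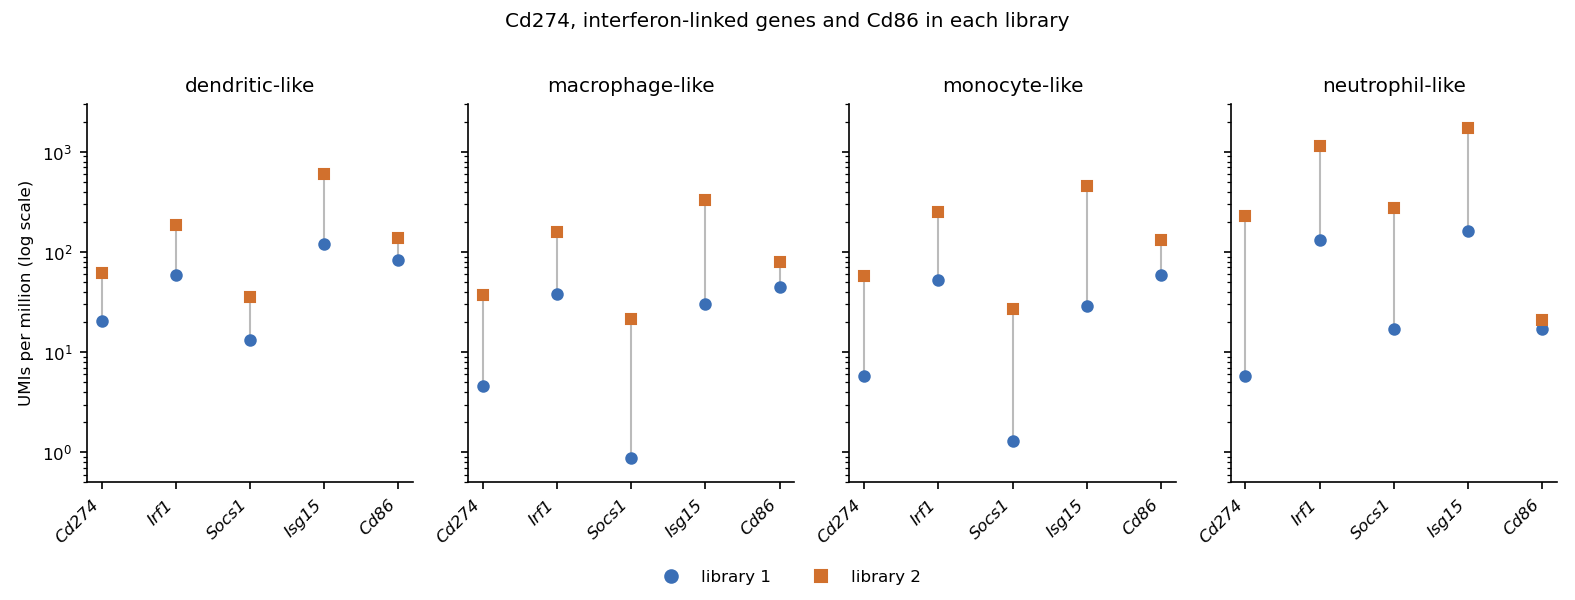
Levels in CPM (y axis, log scale) of Cd274, Irf1, Socs1, Isg15 and Cd86 (x axis) in 4 cell classes, 1 panel each, with library 1 as circles and library 2 as squares joined by a line and no error bars drawn. Cd274 and the 3 interferon-linked genes were higher in library 2 in all 4 classes, while the lines for Cd86 are shorter (83.8 to 136.4 in dendritic-like cells).

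The promoter windows of the PD-1 ligand genes are shown because the neighbours differed in class pattern and in library difference, with that of Lgals9 as the window holding matches to an interferon element. RefSeq (GRCm38.p6) windows from 250 bases before to 50 after the gene start were found for 7 of the 10 genes. The search covered 4 motifs on both strands: the gamma-activated sequence TTCNNNGAA, present in 8.3% of 32851 mouse windows, the interferon-stimulated response element, GAAA and GAAA with any 2 bases between (3.44%), the NF-kB consensus (8.46%) and the PU.1 sequence GAGGAAGT (3.2%). Capitals mark matches, and a window with none holds no capitals.
Cd274 chr19:29367188-29367487, plus strand: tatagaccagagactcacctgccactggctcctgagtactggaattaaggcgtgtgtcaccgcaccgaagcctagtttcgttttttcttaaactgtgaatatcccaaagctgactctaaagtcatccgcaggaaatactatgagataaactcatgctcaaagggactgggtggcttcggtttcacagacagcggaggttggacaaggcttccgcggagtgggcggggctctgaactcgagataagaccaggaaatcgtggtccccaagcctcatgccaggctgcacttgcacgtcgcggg
Pdcd1lg2 chr19:29410669-29410968, plus strand: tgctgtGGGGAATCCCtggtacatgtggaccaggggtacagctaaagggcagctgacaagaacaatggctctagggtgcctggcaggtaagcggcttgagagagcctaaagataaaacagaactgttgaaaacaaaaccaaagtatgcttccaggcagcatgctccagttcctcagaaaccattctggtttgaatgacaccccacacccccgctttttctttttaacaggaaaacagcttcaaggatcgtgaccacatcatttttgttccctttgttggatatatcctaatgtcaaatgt
Lgals9 chr11:78984875-78985174, minus strand: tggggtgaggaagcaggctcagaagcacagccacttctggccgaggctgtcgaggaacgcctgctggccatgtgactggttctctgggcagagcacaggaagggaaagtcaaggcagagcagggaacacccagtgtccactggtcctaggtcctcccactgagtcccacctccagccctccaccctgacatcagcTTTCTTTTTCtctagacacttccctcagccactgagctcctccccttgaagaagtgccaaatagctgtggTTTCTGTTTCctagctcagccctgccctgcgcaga
Cd274 had no match in its window, which says only that these letters are not in these 300 bases. Pdcd1lg2 had 1 NF-kB match, 244 bases before the gene start. Lgals9 had 2 interferon element matches as the reverse complement of the letters shown, 55 bases before and 15 bases after the start. Icosl had an NF-kB match 111 bases before its start and Havcr2 a PU.1 match 8 bases before its start, while the windows of Cd80 and Vsir held none. A match is a description of the sequence, not a measured site.

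Vsir was detected in all classes. It stood at 202.9 and 304.3 CPM in dendritic-like, 317.9 and 404.3 in macrophage-like, 356.2 and 416.6 in monocyte-like and 269.0 and 300.2 in neutrophil-like cells. The ranges of macrophage-like and monocyte-like cells overlapped, as did those of dendritic-like and neutrophil-like cells, and no comparison among the first 3 passed (edgeR adjusted p = 0.306, 0.154 and 0.838 for dendritic against macrophage, dendritic against monocyte and macrophage against monocyte). B-like cells, with 5 and 8 UMIs, had 35.0 and 66.5 CPM, and both values lay below those of these 4 classes.

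Lgals9 was at 106.9 and 113.7 CPM in macrophage-like, 59.4 and 95.2 in monocyte-like and 36.2 and 83.3 in dendritic-like cells. Macrophage-like cells held the highest level and dendritic-like cells the lowest of these 3 classes in each library. The edgeR log2 fold change of dendritic-like against macrophage-like cells was -0.88 ± 0.25 (adjusted p = 0.0251), and the call was lost in 3 of 9 alternatives, with DESeq2, with no replicate block and with library 2 limited to the BC2 side. Macrophage-like and monocyte-like cells differed by 0.52 ± 0.24 (adjusted p = 0.299). Cluster 10, led by the resident macrophage markers Alox15 and Prg4, had 176.5 and 159.3 CPM.

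Havcr2, the TIM-3 gene, was higher in monocyte-like than in dendritic-like and macrophage-like cells. Monocyte-like cells held 25.0 and 28.7 CPM (77 and 115 UMIs), against 5.67 and 10.49 in dendritic-like and 4.18 and 7.67 in macrophage-like cells. The monocyte-like values lay above all 4 others. The edgeR log2 fold change was -2.24 ± 0.28 for macrophage-like (adjusted p = 8.39e-05) and -1.70 ± 0.32 for dendritic-like against monocyte-like cells (adjusted p = 0.00140). Inside the monocyte-like class, the Ly6c2 cluster had 43.7 and 48.8 CPM and the Chil3 Vcan cluster 13.2 and 14.2. Neutrophil-like cells held 0 and 3 UMIs, and the 23 T-like cells of library 2 held 11 UMIs (75.0 CPM). Of the 444 Havcr2 UMIs in the cells kept, 192 lay in monocyte-like cells, 85 in unnamed cluster 6 and 74 in unnamed cluster 8.

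Pvr differed little among mononuclear phagocytes. Its level was 11.3 and 15.4 CPM in dendritic-like, 15.6 and 14.8 in macrophage-like and 19.1 and 18.99 in monocyte-like cells, and no edgeR comparison among the 3 passed (adjusted p = 0.894, 0.403 and 0.568). Neutrophil-like cells held 1 and 3 UMIs. The pooled count ratio over neutrophil-like cells was 8.05 (2.96 to 30.7) in dendritic-like (edgeR adjusted p = 0.00481) and 9.42 (3.59 to 35.1) in macrophage-like cells (edgeR adjusted p = 0.00216).

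Of the 10 transcripts, 4 passed in dendritic-like against monocyte-like cells, beside 11.3% of all genes tested (7.19% higher and 4.1% lower). In macrophage-like against monocyte-like cells 2 passed, beside 4.64% of all genes (2.85% higher and 1.79% lower). The first 4 were Cd40, Icosl and Pdcd1lg2 (higher) and Havcr2 (lower), and the other two Havcr2 and Cd80 (lower). Among 9 alternatives, Cd40 and Cd80 kept their calls in 6 and Havcr2 kept both of its calls in 7, with losses for each with no replicate block and with gates without S100a8 and S100a9, and in addition with DESeq2 for Cd40 and at resolution 0.5 for Cd80. The median log2 fold changes of the 10 were -0.015 and -0.51, against 0.018 and -0.018 for all genes.

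Against neutrophil-like cells 7 of 10 passed in each comparison, where 53.7% of all genes passed for dendritic-like and 57.6% for macrophage-like cells, so these counts lie near the background. All genes split into 29.8% higher and 23.9% lower in dendritic-like cells, and into 30.6% and 26.9% in macrophage-like cells. In library 2 neutrophil-like cells lay almost all on the BC3 side, and dendritic-like and macrophage-like cells mostly on the BC2 side. Class and tag side therefore cannot be told apart there. Dendritic-like cells were higher in Cd40, Pvr, Havcr2, Cd86 and Pdcd1lg2, and lower in Lgals9 and Cd274. The Lgals9 fold rests mainly on library 1, at 36.2 against 120.2 CPM (21 neutrophil-like UMIs), since library 2 held 83.3 against 89.7 CPM. Cd86 had 17.2 and 20.9 CPM in neutrophil-like cells, and edgeR gave 2.17 ± 0.31 on the log2 scale (adjusted p = 1.93e-05). Macrophage-like cells were higher in Cd40, Pvr and Cd86, and lower in Icosl (-2.10 ± 0.42), Cd80 (-1.59 ± 0.44), Cd274 (-3.23 ± 0.41) and Pdcd1lg2. Neutrophil-like cells of library 1 held 2 UMIs each of Icosl and Cd80. Plain Icosl levels were 4.18 and 7.13 against 11.4 and 16.1 CPM, and Cd80 levels 5.50 and 4.38 against 11.4 and 8.28. Both calls were lost with gates on single cells, with and without S100a8 and S100a9. The Cd274 fold rests on library 2 (37.0 against 226.1 CPM), since library 1 held 4.62 against 5.72 CPM from 1 neutrophil-like UMI, and its call was lost with no replicate block (edgeR adjusted p = 0.0561). The Pdcd1lg2 call rests on 2 against 4 UMIs over both libraries, and no fold is given for it. Trimmed-mean scaling moved these fold changes by -0.39 (dendritic-like) and -0.49 (macrophage-like) at the median gene relative to plain CPM. The Lgals9 log2 ratio of plain CPM between macrophage-like and neutrophil-like cells was -0.20 in library 1 and 0.34 in library 2.

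The levels were highest for several ligands in a small dendritic cluster. Cluster 14 held 8 cells in library 1 and 7 in library 2 and was led by Ccr7, the receptor for lymph node homing, and Fscn1, an actin bundling protein of mature dendritic cells. Its mature dendritic marker list summed to 4597 and 4978 CPM, against 3.96 and 4.38 in macrophage-like and 0.649 and 1.75 in monocyte-like cells. Macrophage markers summed to 302.1 and 4830 CPM in it, and their part was not tested. With fewer than 20 cells per library it was not tested. In library 2, 5 of its 7 cells were on the BC3 side and 2 on the BC2 side.

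Cd274 was at 197.0 CPM in cluster 14 of library 1 (15 UMIs, interval 110.3 to 324.9) and 283.4 in library 2 (23 UMIs, 179.6 to 425.2), against 14.4 and 49.4 in the larger dendritic cluster 7. Pdcd1lg2 was at 91.9 and 160.2 CPM against 10.4 and 6.50, and Cd40 at 78.8 and 110.9 against 22.6 and 39.0. For these 3 transcripts the intervals of clusters 14 and 7 did not overlap in library 2, and in library 1 they overlapped for Cd40 alone. Unlike in the 4 large classes, Cd274 of cluster 14 was high in library 1 too. The 8 and 7 cells were 4.37% and 6.09% of dendritic-like cells but carried 31.9% and 23.2% of their Cd274 UMIs and 23.3% and 56.5% of their Pdcd1lg2 UMIs.

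Not every transcript was high there. Lgals9 had 0 UMIs in library 1 and 1 in library 2, against 37.5 and 87.1 CPM in cluster 7, and Vsir had 105.1 and 160.2 CPM against 206.3 and 311.9. Cd86 had 65.7 CPM (21.3 to 153.3) and 234.1 (140.9 to 365.6), which lay below cluster 7 in library 1 and above it in library 2. Leaving cluster 14 out, cluster 7 against macrophage-like cells gave log2 ratios of 6.59 and 3.32 for Pdcd1lg2, 2.60 and 1.495 for Icosl, 0.91 and 0.71 for Cd86, and 1.63 and 0.42 for Cd274.

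**Figure D4:**
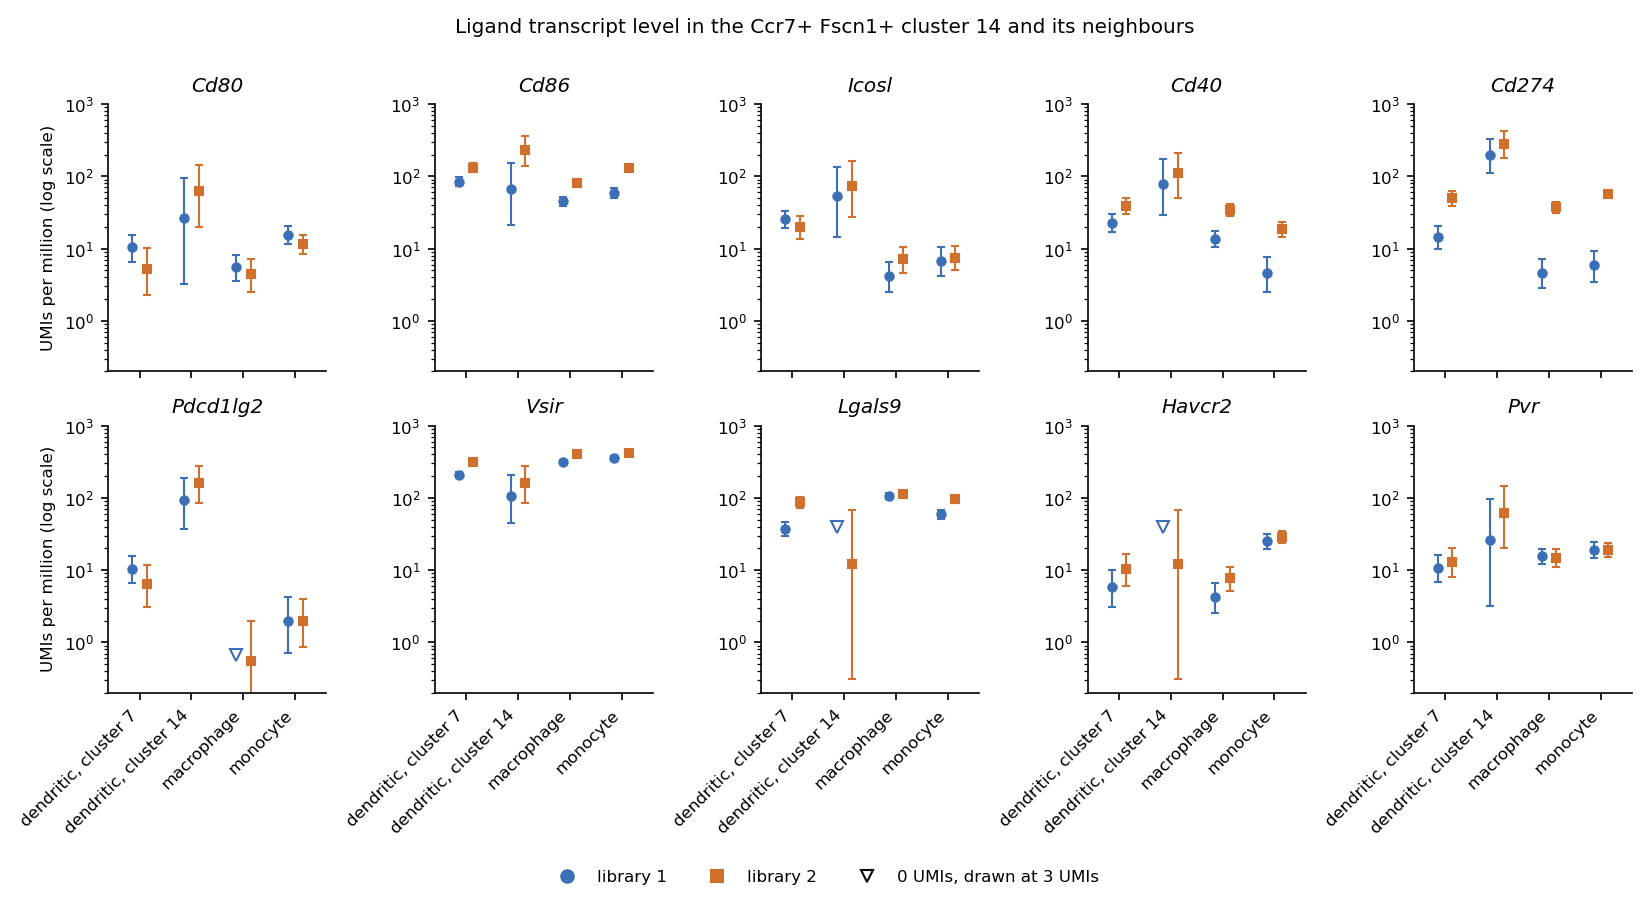
Levels of the 10 transcripts in CPM (y axis, log scale) in dendritic clusters 7 and 14 and in macrophage-like and monocyte-like cells (x axis), by library (circles, library 1; squares, library 2), with exact 95% Poisson intervals; open triangles mark 0 UMIs at the level of 3 UMIs. Cluster 14 (8 and 7 cells) had the highest Cd274 (197.0 and 283.4) and Pdcd1lg2 (91.9 and 160.2) of the 4 populations.

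Macrophage clusters were compared in a second fit. Resident macrophage cluster 10 (29 and 21 cells) had Cd86 at 26.6 and 35.4 CPM, against 46.4 and 86.7 in the Folr2 Cd163 cluster 2, and both values lay below. In edgeR the log2 fold change was -1.15 ± 0.35 (adjusted p = 0.0295), and Cd86 was the 1 transcript of 10 that passed, beside 11% of all 9361 genes tested (7.37% higher and 3.66% lower). Icosl had 0 UMIs in cluster 10 of both libraries and 4.48 and 8.13 CPM in cluster 2.

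Cluster 6 (63 and 236 cells) carried C1q genes with the monocyte gene Ms4a4c and was left unnamed. It was set against clusters 2 and 10, which the fit weighted equally although cluster 2 had 352 and 259 cells and cluster 10 had 29 and 21. Icosl, Havcr2 and Cd86 were higher, 3 of 10 beside 5.14% of all genes (2.47% higher and 2.67% lower). Cd86 was at 51.6 and 105.2 CPM in cluster 6, Havcr2 at 7.95 and 15.2 and Icosl at 9.27 and 10.2. Averaged over the libraries, Cd86 was at 78.4 CPM in cluster 6, 66.5 in cluster 2 and 31.0 in cluster 10. Havcr2 was at 11.6, 6.34 and 2.77 in the same order. The fitted Icosl value, 3.78 ± 1.05 on the log2 scale, includes the 0 counts of cluster 10, and the pooled count ratio was 1.84 (1.23 to 2.77). With library 2 limited to the BC2 side, cluster 10 had 29 and 11 cells and was left out of the fit. Cluster 6 was then set against cluster 2 alone, a different comparison, and none of the 3 calls was kept.

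The wider pathway lists were read from the same fit. Of 35 other costimulatory or coinhibitory surface molecules 24 were tested, and in dendritic-like against macrophage-like cells 9 were higher and 2 lower, beside 8.68% and 5.66% of all genes. Their median log2 fold change was 0.71, against 0.015 for all genes. Cd83, a marker of activated dendritic cells, had 41 and 52 UMIs against 2 and 1. Cd200, ligand of the inhibitory receptor CD200R, had 44 and 34 against 1 and 0. Tnfsf4, the OX40 ligand, had 49 and 16 against 0 and 1. Il4i1, an amino acid oxidase, had 57 and 37 against 2 and 0, Siglecg, an inhibitory lectin gene, 85 and 33 against 2 and 0, and Btla, a coinhibitory receptor, 17 and 13 against 1 and 3. Counts in dendritic-like cells were above those in macrophage-like cells in both libraries for all 6, although the macrophage-like class held more cells. Fgl2 (log2 fold change 2.33 ± 0.34, edgeR adjusted p = 9.81e-05) and Slamf7 (2.37 ± 0.38, adjusted p = 0.000241) were also higher, as was Cd244 (2.04 ± 0.27, adjusted p = 3.01e-05), while Ceacam1, a coinhibitory adhesion molecule, was lower (-1.99 ± 0.27, adjusted p = 4.0e-05).

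Of 20 genes that signal to or induce these ligands, 10 were higher and none lower in dendritic-like than in macrophage-like cells, beside the same shares of all genes, with a median of 0.86 and 11 at an unadjusted p under 0.05 in edgeR. Against neutrophil-like cells, 3 were higher and 7 lower in dendritic-like cells, and 0 were higher and 15 lower in macrophage-like cells, beside the shares of all genes given above for those comparisons. The 10 included the NF-kB genes Nfkb1, Nfkb2, Rel and Relb, and the signalling genes Socs1, Jak2, Ifngr1 and Map3k14. Traf1, an adaptor downstream of TNF family receptors, led the list at 163.7 and 95.7 CPM against 1.98 and 4.93 (log2 fold change 5.36 ± 0.35, edgeR adjusted p = 8.29e-09). Among 10 lymphocyte receptor genes 2 were tested, and Lag3, which binds MHC class II, had 13 and 15 UMIs against 0 and 6. Between macrophage-like and monocyte-like cells, 1 surface molecule was higher, the galectin-1 gene Lgals1 (1.13 ± 0.30), and 1 was lower, the SLAM family receptor gene Cd244 (-1.33 ± 0.26). No induction gene passed there in edgeR, with 5 at an unadjusted p under 0.05.

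Co-detection was read in single cells after thinning each cell to the same number of UMIs, as a description per library. At 1000 UMIs, 1.09% of dendritic-like cells in library 1 (2 of 183) and 0.870% in library 2 (1 of 115) held a UMI of Cd80, Cd86, Cd40 or Icosl together with one of Cd274 or Pdcd1lg2. In macrophage-like cells it was 0 of 381 and 0 of 279. All 3 co-detecting dendritic-like cells lay in cluster 14 (2 of 8 and 1 of 7 cells), and cluster 7 gave 0 of 175 and 0 of 108. Monocyte-like cells gave 0 of 353 and 8 of 413 (1.94%; 0.840 to 3.78). Neutrophil-like cells gave 0 of 75 and 5 of 1202 (0.416%; 0.135 to 0.968), and in library 2 a PD-1 ligand was detected in 18.6% of them and a costimulatory transcript in 3.91%, so they give no background level. Before thinning, the median depth was 11722 and 12419 UMIs in dendritic-like and 2164 and 1292 in neutrophil-like cells. Macrophage-like cells had a median of 11704 and 11965.5 UMIs, and thinning to 5000 UMIs was added after the data were seen. At 5000 UMIs the share was 8.33% (15 of 180; exact 95% binomial interval 4.74 to 13.4) and 15.5% (16 cells; 9.15 to 24.0) in dendritic-like cells. It was 0.826% (3 of 363; 0.171 to 2.40) and 9.72% (24 of 247; 6.33 to 14.1) in macrophage-like cells. Monocyte-like cells gave 0.893% (0.184 to 2.59) and 13.1% (9.85 to 16.9). The dendritic-like interval was apart from both others in library 1 and overlapped both in library 2. On the BC2 side of library 2 the share was 10.1% (9 of 89) in dendritic-like and 10.3% (24 of 232) in macrophage-like cells. Without thinning the shares were 17.5% and 37.4% in dendritic-like and 2.62% and 26.4% in macrophage-like cells. The single shares at 5000 UMIs differed as well. A costimulatory UMI was in 52.8% and 61.2% of dendritic-like, 30.3% and 50.2% of macrophage-like and 33.0% and 55.9% of monocyte-like cells. A PD-1 ligand UMI was in 12.8% and 21.4%, 2.20% and 17.4%, and 2.98% and 22.2% in the same order. Whether both kinds met in a cell more often than these single shares give was not tested.

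Pdcd1lg2 was detected at a higher share in dendritic-like cells with Cd274 than in those without. The class includes cluster 14, which carried 31.9% and 23.2% of its Cd274 UMIs and 23.3% and 56.5% of its Pdcd1lg2 UMIs. The pair was not read within cluster 7, and the part of cluster 14 was not tested. At 5000 UMIs, Pdcd1lg2 was detected in 28.6% of dendritic-like cells with Cd274 (4 of 14) and in 5.42% of those without it in library 1, and in 25.0% (5 of 20) and 2.41% in library 2. The intervals overlapped in library 1 (8.39 to 58.1 and 2.51 to 10.0) and were apart in library 2 (8.66 to 49.1 and 0.293 to 8.43). Shares of the next 3 pairs had overlapping intervals in both libraries. Cd40 was detected in 10.8% of library 1 cells with Cd86 and 10.4% of those without, and in 17.4% and 14.04% in library 2. Cd274 was in 7.69% with Cd86 and 7.83% without in library 1, and in 26.1% and 14.04% in library 2. For Cd86 by Vsir the shares were 32.5% and 42.9%, then 45.6% and 41.7%. Cd80 with Cd86 was found in 3 cells of each library, Cd80 with Cd274 in 0 and 2, Cd86 with Pdcd1lg2 in 6 and 5, and Lgals9 with Havcr2 in 0 and 2.

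The same pairs were read in macrophage-like cells. There, Cd274 was detected in 3.90% of cells with Cd86 and 1.75% of those without in library 1, and in 19.6% and 15.3% in library 2. Cd86 by Vsir gave 21.2% and 21.1%, then 39.0% and 41.2%. Havcr2 by Lgals9 gave 2.21% and 1.76%, then 5.16% and 2.67%, and Pdcd1lg2 was in 0 and 1 cells. The cells of 1 library share their source, and these shares were not tested.

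**Figure D5:**
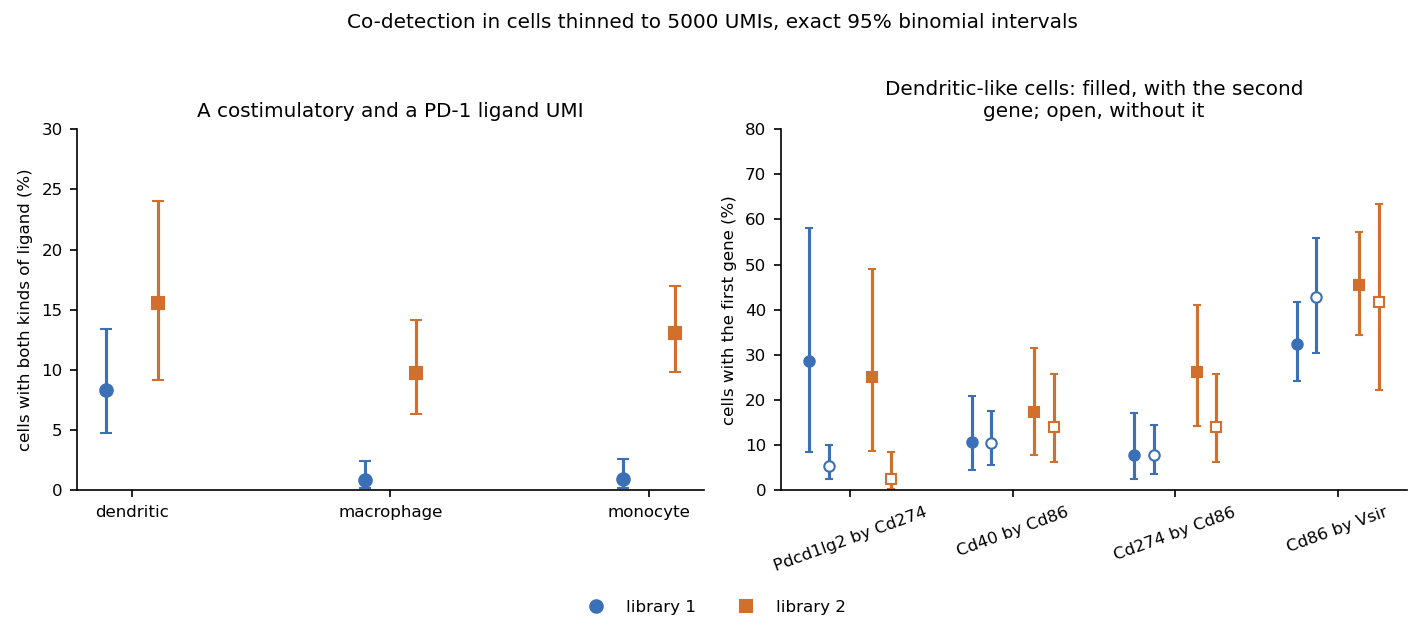
Left, share of cells (%, y axis) with a UMI of a costimulatory ligand and of a PD-1 ligand by class; right, share of dendritic-like cells (%, y axis) with the first-named gene among cells with (filled) and without (open) the second, both after thinning to 5000 UMIs, by library (circles, library 1; squares, library 2) with exact 95% binomial intervals. Pdcd1lg2 by Cd274 shows the widest gap of the 4 pairs drawn (28.6% and 5.42% in library 1).

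Genes with the most similar pattern over the 9 clusters of at least 20 cells per library were found by the mean over both libraries of Pearson's r of log2(CPM + 10), among 7695 genes. Cd86 was most like Tiam1 (0.97) and Rasa4 (0.97), Cd80 like Ppp1r11 (0.88) and Desi1 (0.87), Cd40 like Lrrk1 (0.90) and Phf11b (0.89), and Cd274 like Marf1 (0.80) and Ccdc186 (0.80). Vsir was most like Shfm1 (0.98) and Atp6v0b (0.98), Lgals9 like Itgam (0.93) and Ctsd (0.89), and Havcr2 like Stard4 (0.92) and Cyp51 (0.92). Pvr was most like AU022252 (0.95) and Cpsf2 (0.95), and Icosl like Ccnd2 (0.82) and Ly6e (0.81). With 9 points per library that share library and depth, these values describe a likeness in pattern only, and Pdcd1lg2, with 121 UMIs in the cells kept, was below the limit of 200 UMIs.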

How the data were processed

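Cells of 2 libraries of 1 group were analysed. The authors deposited raw UMI counts per gene and barcode, made with Cell Ranger 3.0.1 on mm10, per the submitters' processing notes; the sources used here name no annotation release and no strand setting. The genes, lists and tests were chosen with earlier results of these data known. Barcodes with at least 300 genes and at most 10% mitochondrial UMIs were kept, 10 and 65 simulated-neighbour doublets were removed, and cells were clustered on 2000 variable genes (without the 10 genes and their pathway lists), 30 components, Harmony-type mixing of libraries and Leiden clustering at resolution 1 (Python 3.11.15, numpy 2.4.6, scipy 1.17.1, scikit-learn 1.9.0, igraph 0.11.9, leidenalg 0.10.2). A cluster took the name of the list with the most markers among its 100 genes of highest fold over the other cells. At least 3 such markers were needed, and no other list could hold more of the 10 highest. Tests needed at least 20 cells per library in a class.

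Counts summed per class and library were fitted with edgeR 4.0.16 (R 4.3.3, limma 3.58.1), using its quasi-likelihood test, trimmed-mean scaling, filterByExpr and the library as a block, with Benjamini-Hochberg adjustment over all genes tested at 0.05. The block rests on each class being drawn from the same 2 libraries. The script was tested on simulated counts. Ratios of pooled counts have exact conditional intervals, and shares exact Clopper-Pearson intervals, all at 95%. Co-detection used cells thinned to 1000 UMIs, with 500, 2000 and 5000 as alternatives. Named genes were the 10 transcripts, up to 10 pathway genes per list that passed in dendritic-like against macrophage-like or macrophage-like against monocyte-like cells, and the 2 genes most like each transcript with at least 200 UMIs; values of 1 listed gene are not reported here. Alternatives were DESeq2 1.42.0, another scaling, no filter, no block, either library alone, the BC2 side of library 2, another resolution, gates on single cells, C1q-low dendritic-like cells and doublets kept. The planned gates left 2 and 7 dendritic cells, because 129 dendritic-like cells of library 1 met the neutrophil gate through S100a8 and S100a9, so gates without these genes were added after the data were seen.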

Additional observations from a re-analysis of the deposited data

How the results depend on the processing

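Of the 10 transcripts, 5 passed in dendritic-like against macrophage-like cells, and 2 did with DESeq2, 2 with no replicate block, 3 on the BC2 side of library 2 and 3 with gates without S100a8 and S100a9. Against monocyte-like cells the 4 calls became 2 with no replicate block and 2 with those gates. For macrophage-like against monocyte-like cells the 2 calls became 1 at resolution 0.5, and 0 in edgeR with no replicate block (3 at an unadjusted p under 0.05) and with those gates (2 at an unadjusted p under 0.05). The 7 calls against neutrophil-like cells became 3 for dendritic-like cells with those gates, and 1 for macrophage-like cells with the planned gates and with the added ones. The resident macrophage count of 1 was 3 with no filter, 0 with DESeq2 (2 at an unadjusted p under 0.05) and 0 in edgeR with no replicate block (1 at an unadjusted p under 0.05). The cluster 6 count of 3 was 0 with DESeq2 (4 at an unadjusted p under 0.05), 0 in edgeR with no replicate block (3) and 0 in edgeR on the BC2 side (4). Values that changed sign were log2 fold changes of Havcr2 in dendritic-like against macrophage-like cells (-0.087 at resolution 0.5, -0.30 with the added gates, -0.052 with doublets kept) and of Pvr there (0.031 without C1q-high cells). In macrophage-like against monocyte-like cells they were Cd274 (0.027 with the added gates) and Icosl (0.043 at resolution 0.5), and against neutrophil-like cells Cd274 (in dendritic-like cells, -1.88 without replicate 1 and 1.27 without replicate 2), Lgals9 (0.27) and Havcr2 (-0.077), both in macrophage-like cells with the planned gates. The rest were Pdcd1lg2 in cluster 10 (0.89 with DESeq2) and Cd40 (-0.25) and Lgals9 (0.23) in cluster 6 on the BC2 side. The mean share of dendritic-like cells with both kinds of ligand, 0.981% at 1000 UMIs (0.870 to 1.09 with 1 library left out), was 0.273% at 500, 3.11% at 2000, 11.9% at 5000 and 27.4% not thinned. It was 0.547% on the BC2 side, 0% with the planned gates, 2.69% with the added gates and 1.40% without C1q-high cells. The macrophage-like share of 0% was 1.10% at 2000, 5.27% at 5000, 14.5% not thinned, 0.599% with the planned gates and 0.527% with the added ones. The cause of these changes was not tested, apart from fewer cells under the gates. The macrophage-like class, 381 and 280 cells in the main setting, had 458 and 525 at resolution 0.5 and 447 and 552 with doublets kept. With doublets kept, a cluster led by Ccl7 and Mnda, as unnamed cluster 6 was, took the macrophage name. Comparisons with macrophage-like cells under these settings are thus of a class with other members. The BC2 side was not run for the neutrophil and resident comparisons, nor the planned gates for dendritic-like and monocyte-like cells, for lack of cells. In the cluster 6 comparison on the BC2 side, cluster 10 was left out for the same reason, so cluster 2 alone was the reference there. Pdcd1lg2 had 121 UMIs, Cd80 264 and Icosl 326 in the cells kept, and neutrophil-like cells of library 1 gave 174744 UMIs in all.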
